A study of Homo sapiens with 11 samples.

Results

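LOUCY is an established T-cell acute lymphoblastic leukemia (T-ALL) line that is described as resembling the early T-cell precursor (ETP), the first stage after a progenitor enters the thymus. It was 1 of 11 T-ALL lines profiled with 1 Affymetrix HG U133 Plus 2.0 array each, and this account sets its array against the other 10. Labels put LOUCY, ALL-SIL, CCRF-CEM, HPB-ALL, PEER and JURKAT in the group positive for NKL homeobox genes, and SUP-T1, CML-T1 and the MOLT lines 4, 14 and 16 in the negative group. No treatment is named in the labels, and each array describes 1 cultured line and not a disease subtype. Each gene was represented by 1 probe set, that of the highest mean signal, which gave 19775 genes. Genes at least 2 log2 units above or below every other line formed the own profile of LOUCY, 94 genes in all, with 58 higher and 36 lower. With 1 array there is no replicate of LOUCY, so its differences from the other lines were not tested, and the range of the other 10 lines stands in for the spread.

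ETP cells still carry programs of multipotent progenitors. In a normal thymus NOTCH signalling then switches on T-cell factors such as GATA3 and BCL11B, progenitor factors fade, receptor genes are rearranged with RAG1, RAG2 and DNTT, and CD1, CD4 and CD8 molecules appear at the cortical stage. Leukemias of the ETP type are known for the transcription factors LYL1, MEF2C and HHEX, for stem cell and myeloid genes, and for weak CD1A, CD8 and often CD5.

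Values are log2 signals from robust multiarray averaging (RMA), where 1 unit is a factor of 2 in signal. Array medians lay between 4.63 and 4.76. The lower quartile of LOUCY, 3.49, marks signals near background, where neighbouring values lay on steps of up to 0.06. Poly-A control probe sets averaged 7.71 on the LOUCY array, 5.65 to 8.76 in 7 other lines and 2.99 to 3.12 in MOLT-16, CML-T1 and HPB-ALL. The 3' minus 5' difference of the ACTB control probe sets was 0.17 in LOUCY and 0.40 to 1.17 in the others. The part of these technical differences in the results was not tested.

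LOUCY was above every other line at 1937 genes, 9.80% of all, and below every other line at 1885 genes, 9.53%. These percentages are the background for the counts of list members above or below every other line given further on. Against the median of the others it differed by 2 log2 units or more upward at 487 genes (2.46%) and downward at 336 genes (1.70%). The median difference over all genes was 0.00. Own profiles built in the same way held 11 genes in CCRF-CEM and up to 101 in CML-T1, so the 94 genes of LOUCY were the second largest set. The 58 higher genes were 0.293% of all genes and the 36 lower ones 0.182%. These shares follow from the rule and are given as a description.

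**Figure D1:**
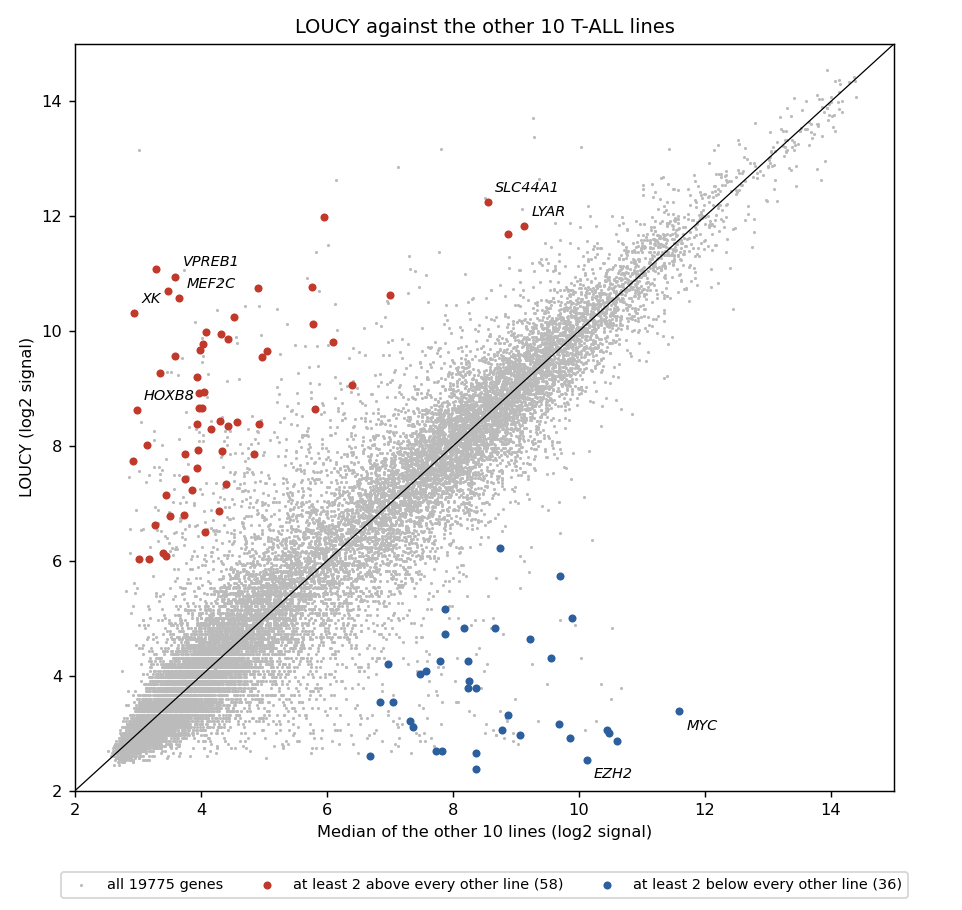
Each grey point is 1 of 19775 genes, with the median of the other 10 lines on the x axis and LOUCY on the y axis, both as log2 signal. Red points are the 58 genes at least 2 units above every other line and blue points the 36 genes at least 2 units below, and the diagonal marks equal values. The red genes lie mostly where the median of the other lines is low, while all blue genes are well expressed elsewhere.

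Most higher members had low signals in the other lines. The median of the others was below 4.70, the median of all values on the arrays, for 43 of the 58, and even the highest other line was below it for 15. LOUCY itself ranged from 6.03 to 12.25 at these genes. At the 36 lower members the picture was the reverse. The medians of the others had a middle value of 8.36, while LOUCY had a middle value of 3.55 and lay under its lower quartile at 17 genes. The gap to the nearest other line had a median of 2.73 among the higher and 3.33 among the lower genes.

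Genes measured by several probe sets allowed a look at probe sets other than the 1 that placed the gene in the own profile. Of the 58 higher genes, 30 had further probe sets, and LOUCY was the highest line at 60 of these 75 (80%), against 9.23% of all further probe sets. Of the 36 lower genes, 23 had further probe sets, and LOUCY was the lowest line at 36 of 49 (73.5%), against 7.97%. Probe sets of 1 gene share its transcripts and the same RNA, so they are no replicates. The genes were chosen for extreme values in LOUCY, so shares above those of all further probe sets partly follow from the rule. The remaining 28 higher and 13 lower genes rest on 1 probe set.

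The label was checked against its marker genes. MEF2C, a MADS-box transcription factor of progenitors, measured 10.57 in LOUCY against 2.95 to 7.69 in the other lines, with a median of 3.65. All 3 of its probe sets were highest in LOUCY, and MOLT-16 came nearest. LYL1, a basic helix-loop-helix factor of stem cells, measured 11.30 against 5.52 to 9.66, with a median of 7.30. HHEX, a homeobox gene of the NKL subclass active in progenitors, measured 10.89 against 2.92 to 10.61, with a median of 4.31. LOUCY was thus the highest line for all of these, but the lead was 2.88 for MEF2C, 1.64 for LYL1 and 0.28 for HHEX. HHEX was also high in CCRF-CEM at 10.61 and PEER at 9.92. LMO2, an adaptor of stem cell factor complexes, measured 8.41 in LOUCY with a range of 2.96 to 9.93 elsewhere, so it was inside the range. Against the label, the surface markers of progenitors CD34 (4.03 against 4.54 to 6.96) and KIT (3.38 against 3.53 to 8.63) were lowest in LOUCY, each with 1 probe set and values near background.

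Promoter sequences are shown for these marker genes and for VPREB1 and GFI1B, leading members of the own profile described further on. They come from RefSeq on GRCh38.p14 and run from 250 bases before to 50 bases after a transcript start. Capitals mark GATA, the core letters bound by GATA factors, and CAGNTG, a form of the E-box bound by dimers of factors such as LYL1, both searched on both strands. GATA was found in 49.7% and CAGNTG in 49.9% of all 35116 promoters of this length, so these short motifs are common by themselves and a match is a description.
HHEX, chr10:92689705-92690004, plus strand: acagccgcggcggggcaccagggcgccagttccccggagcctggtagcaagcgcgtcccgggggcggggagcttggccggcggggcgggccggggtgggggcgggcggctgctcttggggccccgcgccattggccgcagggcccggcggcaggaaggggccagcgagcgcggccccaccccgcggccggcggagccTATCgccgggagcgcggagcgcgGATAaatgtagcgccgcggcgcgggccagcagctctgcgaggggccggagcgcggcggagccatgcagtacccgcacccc
LYL1, chr19:13102809-13103108, minus strand: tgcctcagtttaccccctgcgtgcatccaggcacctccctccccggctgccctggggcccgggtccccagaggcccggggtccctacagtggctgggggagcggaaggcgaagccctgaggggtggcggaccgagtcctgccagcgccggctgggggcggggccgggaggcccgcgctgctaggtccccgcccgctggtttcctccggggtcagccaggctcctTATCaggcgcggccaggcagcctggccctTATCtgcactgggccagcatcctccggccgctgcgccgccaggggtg
MEF2C, the first of 7 starts listed, chr5:88883135-88883434, minus strand: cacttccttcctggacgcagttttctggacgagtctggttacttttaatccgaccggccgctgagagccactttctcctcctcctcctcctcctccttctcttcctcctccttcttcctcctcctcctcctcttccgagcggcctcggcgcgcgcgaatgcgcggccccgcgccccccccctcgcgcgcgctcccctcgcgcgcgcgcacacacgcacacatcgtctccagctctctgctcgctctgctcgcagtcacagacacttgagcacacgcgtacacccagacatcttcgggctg
VPREB1, chr22:22244536-22244835, plus strand: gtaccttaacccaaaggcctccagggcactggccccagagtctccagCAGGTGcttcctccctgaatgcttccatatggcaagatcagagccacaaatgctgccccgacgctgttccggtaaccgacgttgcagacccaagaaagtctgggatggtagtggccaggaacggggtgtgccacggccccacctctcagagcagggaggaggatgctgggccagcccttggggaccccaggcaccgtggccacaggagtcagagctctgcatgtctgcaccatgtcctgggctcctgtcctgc
GFI1B, the first of 2 starts listed, chr9:132945281-132945580, plus strand: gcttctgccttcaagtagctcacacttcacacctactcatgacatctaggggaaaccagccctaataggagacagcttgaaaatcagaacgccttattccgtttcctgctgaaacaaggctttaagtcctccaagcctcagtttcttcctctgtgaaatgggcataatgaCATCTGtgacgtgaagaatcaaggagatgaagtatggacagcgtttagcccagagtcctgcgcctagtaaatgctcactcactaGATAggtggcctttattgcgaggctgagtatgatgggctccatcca
The HHEX and LYL1 windows each held 2 GATA matches and no CAGNTG. The VPREB1 window held 1 CAGNTG and no GATA, GFI1B held 1 of each, and the first MEF2C start held neither. The other MEF2C starts held up to 6 GATA and up to 1 CAGNTG match. Of the 67 promoters listed for 39 of the higher members, 55.2% held GATA and 62.7% held CAGNTG.

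Transcription factors of ETP and stem cells were shifted upward as a list, beside the shares of 9.80% and 9.53% over all genes. Of 23 measured genes, 8 were above every other line (34.8%) and 0 below. The 8 include the label's own markers HHEX, LYL1 and MEF2C. MEF2C and MN1 also belong to the own profile, so the share partly follows from how genes were chosen. The list median was 0.84 above the others, outside the range of -0.44 to 0.39 that the other lines showed for the same measure. MN1, a transcriptional coactivator that can transform myeloid progenitors, measured 8.02 in LOUCY against 2.79 to 3.77, so no other line expressed it clearly. MYCN, a MYC family factor, measured 10.16 against 3.08 to 8.80 with a median of 3.91, and CCRF-CEM and MOLT-14 (7.34) followed, while 3 of its 9 further probe sets were highest in LOUCY. SPI1, the PU.1 factor of early progenitors and myeloid cells, measured 6.22 against 2.96 to 4.64. GATA2 measured 6.83 against 3.40 to 5.96, with 1 of its 2 further probe sets highest in LOUCY. IKZF2 measured 11.47 against 10.10 to 11.21, a lead of 0.26, with 0 of its 2 further probe sets highest. ERG, an ETS factor of stem cells, measured 9.23 against a median of 3.64, but PEER was higher at 9.46. TAL1, an oncogene of more mature T-ALL, was near background in LOUCY at 3.38, with a range of 2.71 to 10.74 elsewhere. MEIS1 at 3.66 and HMGA2 at 3.66 were also near background.

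The HOXB cluster gave the largest list shift. HOX genes encode homeodomain factors that give cells positional identity, and in blood they are active in stem and progenitor cells. The list median was 3.20 above the others, while the other lines ranged from -1.43 in HPB-ALL to 0.79 in PEER. Of 10 HOXB genes, 7 were above every other line (70.0%) and 0 below. Among the 7, HOXB6, HOXB8 and HOXB9 belong to the own profile, so the rule chose them for their lead in LOUCY. HOXB8 measured 8.63 in LOUCY and 2.66 to 3.31 in the other 10 lines, with a median of 2.98. HOXB6 measured 9.27 against 2.92 to 5.10, and HOXB9 measured 7.92 against 3.74 to 5.22. HOXB8 was near background in all other lines, whereas HOXB6 reached 5.10 in PEER and HOXB9 reached 5.22 in MOLT-4, 5.07 in CML-T1 and 4.82 in JURKAT. HOXB7 (9.16 against 3.31 to 7.82), HOXB5 (7.63 against 3.35 to 6.27), HOXB4 (8.90 against 5.28 to 7.91) and HOXB3 (9.84 against 3.26 to 9.49) were also highest in LOUCY, with smaller leads. HOXB2 measured 9.25, but PEER was higher at 10.15 and MOLT-14 followed at 8.45. At both ends of the cluster LOUCY was close to the median of the others, with HOXB1 at 4.83 (difference 0.01) and HOXB13 at 4.48 (0.12).

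**Figure D2:**
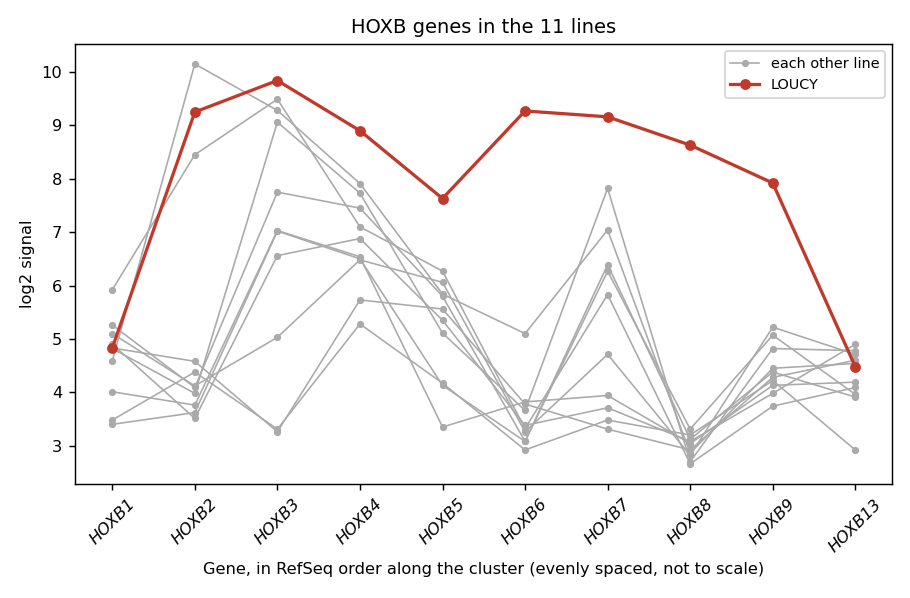
The log2 signal (y axis) of the 10 HOXB genes is plotted in the order of the cluster (x axis, evenly spaced), with LOUCY in red and each other line in grey. LOUCY stays at 7.63 or above from HOXB2 to HOXB9, whereas all other lines fall to 5.10 or less at HOXB6 and to 3.31 or less at HOXB8.

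Of the other transcripts within or beside this cluster, HOXB-AS3, MIR10A and LINC02086 also belong to the own profile and were thus chosen for their high values in LOUCY. In the run of 40 neighbours from HOXB2 to PPP1R9B, 15 genes were above every other line and 9 were lower than the median of the others. HOXB-AS3, an antisense RNA of the cluster, measured 7.24 against 3.31 to 4.28, and all 5 of its probe sets were highest in LOUCY. It overlaps HOXB genes on the opposite strand, so the assignment of its signal rests on the probe design. MIR10A, the gene of miR-10a, measured 7.93 against 3.26 to 5.86 with a median of 3.95, and PEER came nearest. The array reads longer RNA of this locus and not the mature miRNA. LINC02086, a noncoding RNA among the neighbours in RefSeq order, measured 8.66 against 3.45 to 4.73. The mature sequence is given because it names the product of this locus. The seed, bases 2 to 8, is in capitals, and the sequence lies at chr17:48579904-48579926 on the minus strand of GRCh38.p14.
hsa-miR-10a-5p: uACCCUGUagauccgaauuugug
Outside the cluster, HOXC9 measured 6.78 against 3.26 to 4.03, and PITX1, a homeobox gene of limb and pituitary development, measured 10.24 against 3.08 to 7.17 with JURKAT nearest. Among HOXA genes and their TALE partners 7 genes were measured, only HOXA2 of them a HOXA gene, and the others of that cluster were not analysed here. MEIS2 was lowest in LOUCY at 3.32 against 3.58 to 8.58, PBX4 was lowest at 5.30 against 5.73 to 7.27, and PBX3 was highest at 9.11 against 6.78 to 9.02.

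Genes of the thymic cortex were the most reduced list. For receptor rearrangement and cortical thymocyte genes the list median was -2.78, below the range of -2.02 to 2.14 of the other lines. Of 20 genes, 0 were above and 6 below every other line (30%), and 11 were at least 2 units below the median. Over all genes, 9.80% were above and 9.53% below every other line, and 1.70% were at least 2 units below the median. DNTT, the polymerase that adds bases at receptor junctions, measured 4.31 in LOUCY with 3.16 to 12.60 elsewhere and a median of 10.03. RAG1, a recombinase subunit, measured 3.73 with 2.75 to 11.26 and a median of 7.74, and RAG2 measured 2.74 with a median of 5.30. CHI3L2, a chitinase-like protein, measured 3.60, with ALL-SIL nearest at 5.0 and a median of 10.51. Other lines were as low or lower at DNTT (CML-T1 and MOLT-16), RAG1 (MOLT-16, MOLT-14 and PEER) and RAG2 (PEER), but none at CHI3L2. CD1A (4.37 against 4.68 to 12.13), CD8A (3.73 against 4.87 to 11.11), CD8B (2.92 against 3.12 to 10.32) and CD1B (3.32 against 3.34 to 12.85) were lowest in LOUCY. At CD8B and CD1B the lowest other line was also below 3.49, so their place as lowest rests on background signals. LOUCY lay below this lower quartile at 5 of the 20 genes. PTCRA, the partner of the receptor beta chain before rearrangement of the alpha gene, was at 6.8 and did not stand apart, with 5.25 to 9.91 elsewhere.

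Surface genes of T-cells and thymocytes, which share 8 CD1, CD4, CD8 and CCR9 genes with the cortical list, had a median of -1.38 (other lines -0.49 to 2.23). Of 22 genes, 0 were above and 8 below every other line (36.4%), beside 9.80% and 9.53% of all genes. Lowest in LOUCY were also CXCR4, the receptor that retains cells in the marrow and thymus (10.80 against 11.35 to 12.65), S1PR1, the receptor for egress (2.65 against 2.71 to 8.72), CD27 (4.78 against 5.37 to 8.27) and CCR4 (3.38 against 4.01 to 8.46). S1PR1 was at background in LOUCY and in the lowest other line alike. LOUCY lay below its lower quartile at 7 of the 22 genes. CD2, an adhesion molecule of T-cells, was low at 4.43, with 4.13 to 10.89 elsewhere. CD7, one of the earliest T-lineage surface molecules, was kept at 9.59 within a range of 7.09 to 11.46. CD5, often weak on ETP leukemias, was at 7.94 within 7.18 to 8.87, so it did not stand apart here.

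RNA of the receptor complex chains CD3E and CD3D was well above background, and protein was not measured. For CD3 and receptor signalling genes the median was -0.20, inside the other lines' range of -0.31 to 0.47, with 2 of 24 genes above (8.33%) and 3 below every other line (12.5%). CD3E measured 10.69 against 9.19 to 10.41 and was highest in LOUCY, and CD3D measured 12.64, equal to the lowest other line. THEMIS, a signalling adaptor needed for thymocyte selection, was a member of the own profile at 2.92 against 5.10 to 10.79, with a median of 9.86. LCK, the kinase that starts receptor signalling, was lowest at 10.73 against 11.18 to 12.22, and SH2D1A was lowest at 9.90 against 10.40 to 12.13. These last values were lower than elsewhere but far above background.

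Among T-lineage transcription factors the median was 0.06, inside the range of -0.39 to 0.47, with 5 of 23 above (21.7%) and 1 below every other line (4.35%). GATA3, needed for T-lineage entry, was highest in LOUCY at 12.66 against 10.69 to 11.83, but at 0 of its 2 further probe sets. BCL11B, which seals T-cell commitment, was the single lowest factor at 9.22 against 10.24 to 11.79, and all 3 of its probe sets were lowest in LOUCY. These values were still far above background. ZNF683 (7.94 against 4.54 to 6.87), ZBTB7B (7.05 against 4.02 to 5.96) and TOX (11.76 against 10.27 to 11.50) were highest in LOUCY. Neither the further probe set of ZBTB7B nor that of TOX was highest in LOUCY. EGR1, an early response gene, was 2.30 below the median of the others but inside their range.

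NOTCH receptors and targets had a list median of 0.01 (other lines -1.03 to 0.72), which hid low values of several receptors and targets. Of 30 genes, 7 were at least 2 units below the median, against 1.70% of all genes, and 0 were at least 2 above. Above every other line were 4 (13.3%) and below it 1 (3.33%), beside 9.80% and 9.53% of all genes. NOTCH1 itself measured 7.08 with 6.60 to 11.13 elsewhere and a median of 9.21. NOTCH3 measured 3.66 with a median of 7.75, HES1 measured 4.48 with a median of 8.42, and DTX1 measured 5.14 with a median of 7.31. At these genes MOLT-16, CML-T1 or JURKAT was at least as low, and of the 30 genes MYC was the 1 below every other line. MYC belongs to the own profile, so the rule chose it for its low value in LOUCY. LZTFL1 (-3.55) and CR2 (-2.87) were the other genes at least 2 units below the median. HEYL (6.0 against 3.26 to 5.74), TRIB2 (10.20 against 7.68 to 10.09), LFNG (6.54 against 3.60 to 6.01) and NOTCH2NLA (10.56 against 9.12 to 10.33) were highest in LOUCY.

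**Figure D3:**
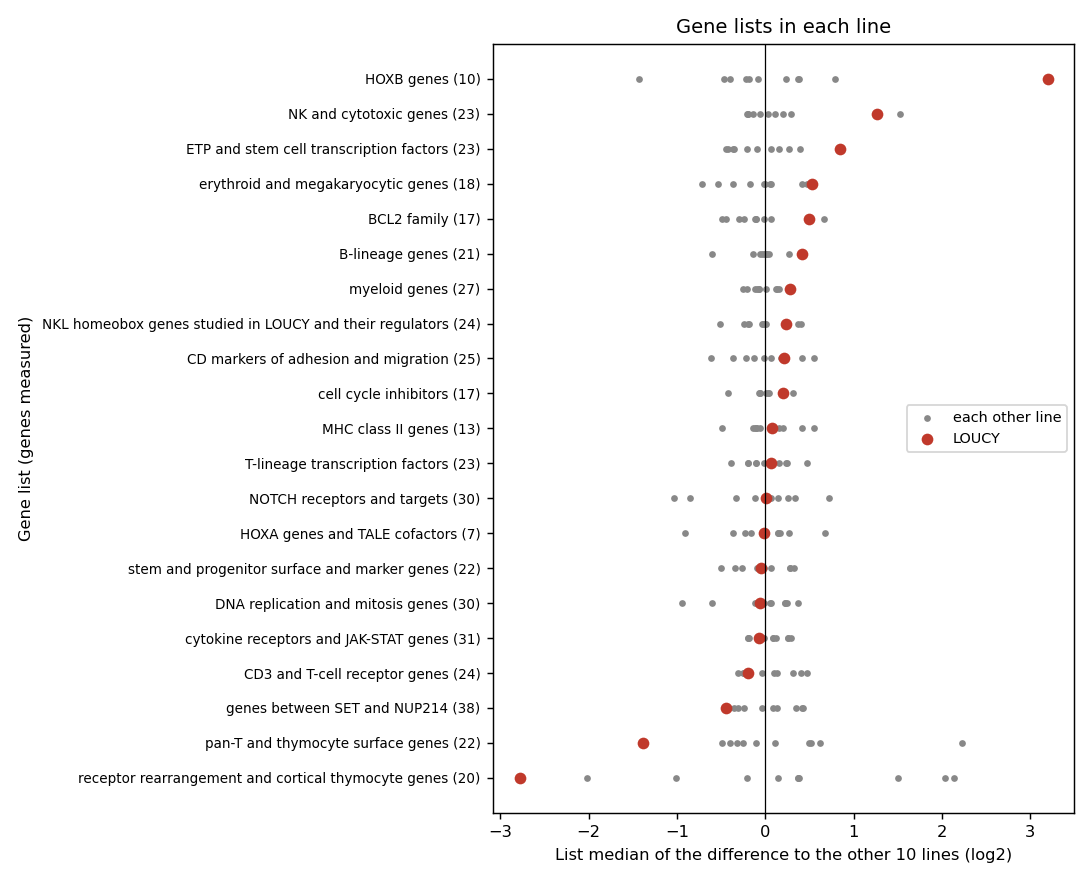
For each of 21 gene lists (y axis, with the number of genes measured), points give the median over the list of the difference between a line and the median of the other 10 (x axis, log2). LOUCY, in red, lies outside the grey points of the other 10 lines for HOXB genes (3.20), ETP and stem cell factors (0.84), cortical genes (-2.78) and pan-T genes (-1.38), and narrowly for the erythroid, B-lineage, myeloid and SET to NUP214 lists.

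Genes of other blood lineages were read next. B-lineage genes had a median of 0.42 (other lines -0.60 to 0.27), with 5 of 21 above every other line (23.8%) and 1 below (4.76%). VPREB1 and IGHM of this list belong to the own profile, so the rule chose them for their lead in LOUCY. VPREB1, part of the surrogate light chain of pre-B-cells, measured 10.95 in LOUCY and 3.11 to 5.38 elsewhere, with a median of 3.59. IGLL1, its partner chain, was highest at 13.17 against 3.55 to 11.81. IGHM, the mu heavy chain, measured 10.77 against 3.45 to 6.77, though only 2 of its 4 further probe sets were highest in LOUCY. CD79A, a B-cell receptor subunit, was inside the range at 9.25 (5.77 to 10.12), and CD79B was highest at 8.25 against 3.64 to 7.46. Of the defining markers, MS4A1 was near background at 3.38 and PAX5 was at 5.77 against 3.73 to 5.66, a lead of 0.11. EBF1, a B-cell factor, measured 7.63 and equalled the highest other line.

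SYK, the kinase that B-cell receptors and progenitors use, measured 8.94 against 3.20 to 6.59, with a median of 4.04, and all 4 probe sets were highest in LOUCY. GAPT, an adaptor of B-cells and myeloid cells, measured 7.74 against 2.70 to 3.58. Both belong to the own profile. GAPT was near background in all other lines, while SYK reached 6.59 in JURKAT and 6.05 in MOLT-16.

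Erythroid and megakaryocytic genes had a median of 0.53 (other lines -0.72 to 0.47), with 5 of 18 above every other line (27.8%) and 1 below (5.56%). Over all genes these shares were 9.80% and 9.53%. The list held 2 members of the own profile, so the rule chose these 2 of the 5 for their lead in LOUCY. GFI1B, ITGA2B, XK, HEMGN and HBD all belong to the own profile, and those outside the list were grouped here after their values were seen. GFI1B, a repressor that drives both lineages, measured 10.75 against 3.51 to 7.43, and its other probe set showed the same with 9.68 against 3.0 to 6.33. ITGA2B, the platelet integrin CD41, measured 7.86 against 3.59 to 5.83. XK, the carrier of the Kx blood group antigen, measured 10.31 against 2.51 to 4.97 and was the third in the order of gaps at 5.34. HEMGN, a nuclear protein of hematopoietic progenitors, measured 9.67 against 3.17 to 7.08, and HBD, the delta globin gene, measured 7.61 against 3.04 to 4.71. Of the measured erythroid markers, HBB was above every other line at 5.92 against 4.24 to 5.58, and ALAS2 was at 4.43 within 3.15 to 4.59. The erythroid factor KLF1 at 3.97 and the platelet chemokine PPBP at 3.11 lay within the range of the others.

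No gene of the myeloid list was in the own profile. HPGDS, CPA3, CD93 and LILRA2, members of the own profile outside the lists, were grouped after their values were seen. HPGDS, a prostaglandin D synthase of mast cells and megakaryocytes, measured 10.70 against 3.08 to 5.89, and CPA3, the mast cell carboxypeptidase, measured 7.14 against 3.20 to 4.78. CD93, a surface protein of progenitors, myeloid and endothelial cells, measured 9.98 against 3.31 to 6.82. LILRA2, an activating myeloid receptor, measured 8.39 against 3.53 to 5.34, and all 4 probe sets were highest in LOUCY. LILRA2 has close relatives in its gene family, so probe sets may share signal. Across 27 myeloid genes the median was 0.28 (other lines -0.25 to 0.16), with 3 above (11.1%) and 1 below every other line (3.70%), beside 9.80% and 9.53% over all genes. FCER1G, a signalling subunit of Fc receptors, was highest at 7.68 against 3.32 to 7.10, and LYZ was at 5.48 against 2.55 to 5.21. Of the 4 defining markers, LYZ and CSF1R (4.88) were above 4.70, and MPO (4.09) and CD14 (3.91) were below it. CSF1R, MPO and CD14 lay within the range of the other lines.

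NK and cytotoxic genes had a median of 1.26, inside the range because MOLT-16 reached 1.53. The median fell to 0.77 without ALL-SIL, MOLT-14, SUP-T1 or JURKAT and to 0.78 without MOLT-4. Of 23 genes, 7 were at least 2 units above the median, beside 2.46% of all genes, and 2 were above every other line (8.70%), beside 9.80% of all genes. PRF1, the pore protein perforin, measured 9.74 with 5.15 to 10.20 elsewhere and a median of 5.84. CST7 (8.90, median 5.23), GZMA (8.03, median 4.8) and CTSW (9.53, median 6.36) were also high without being highest. The NK markers NCAM1 (4.54), KLRF1 (3.73) and NCR1 (4.54) were within the range of the others. IL18RAP, a receptor chain for interleukin 18, was in the own profile at 9.86 against 3.98 to 7.86, with MOLT-16 nearest. The mean signal over these other-lineage lists in LOUCY was 6.25 for B-lineage genes (other lines 4.54 to 5.56), 5.93 for erythroid and megakaryocytic genes (4.35 to 5.47), 4.54 for myeloid genes (3.81 to 4.19) and 6.25 for NK genes (4.36 to 6.86). Above the median of all values lay 12 of 21, 12 of 18, 10 of 27 and 13 of 23 of these genes, and the part of any other cell type in these values was not tested.

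**Figure D4:**
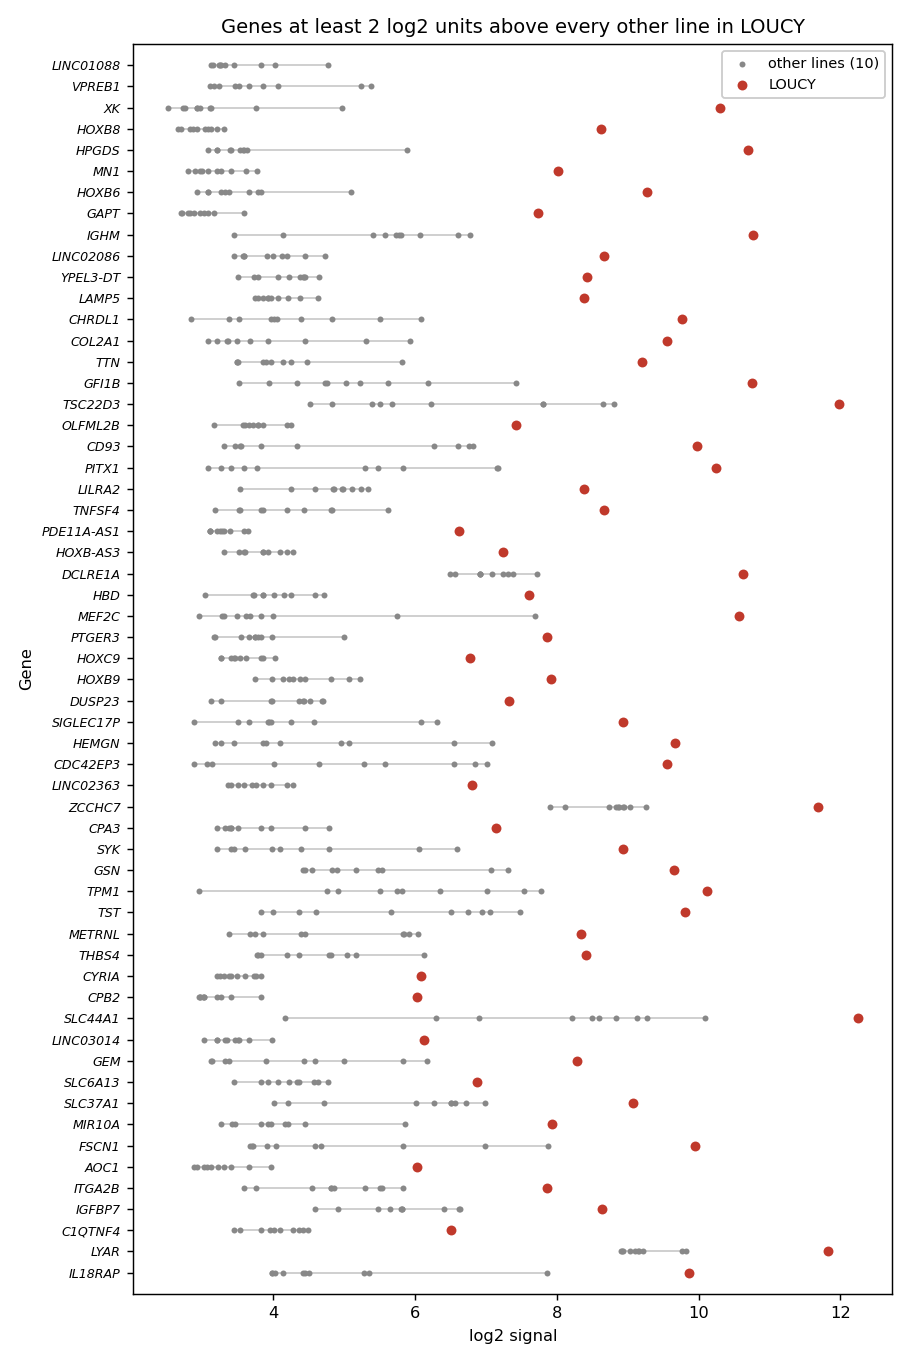
Each line of the plot is 1 of the 58 higher members, ordered by the gap to the nearest other line, with the log2 signal on the x axis. The red point is LOUCY, grey points are the other 10 lines and the grey bar is their range, and gaps run from 6.31 for LINC01088 to 2.0 for IL18RAP.

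The remaining higher members were grouped by role after their values were seen. Noncoding RNAs led the order. LINC01088 measured 11.08 against 3.12 to 4.77, a gap of 6.31 to HPB-ALL, although its 2 further probe sets measured 4.15 and 2.96 in LOUCY. YPEL3-DT (gap 3.79), PDE11A-AS1 (2.98), LINC02363 (2.52) and LINC03014 (2.15) were the others. TSC22D3, the glucocorticoid-induced leucine zipper gene, was strongly expressed at 11.98 against 4.52 to 8.81.

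Secreted and matrix proteins included CHRDL1, an antagonist of bone morphogenetic proteins (BMPs), at 9.77 against 2.84 to 6.08. COL2A1, a cartilage collagen, measured 9.56 against 3.08 to 5.93, and both probe sets were highest in LOUCY. OLFML2B (gap 3.17), METRNL (2.30), THBS4 (2.28), CPB2 (2.20), IGFBP7 (2.01) and C1QTNF4 (2.01) completed this group. IGFBP7 is also known as a marker of ETP-type and stem-like acute leukemia, and it measured 8.64 against 4.59 to 6.63.

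Cytoskeletal genes comprised TTN, the giant muscle protein titin (gap 3.39), CDC42EP3 (2.54), GSN, the actin-severing protein gelsolin (2.35), TPM1, a tropomyosin (2.34), CYRIA (2.26), GEM (2.12) and the actin bundler FSCN1 (2.07). TTN was read by 6 probe sets, of which 3 were highest and 1 was lowest in LOUCY. Genes of membrane proteins were LAMP5 (3.75), TNFSF4, the OX40 ligand (3.04), and the prostaglandin E2 receptor PTGER3 (2.86). SIGLEC17P, a pseudogene, had a gap of 2.62. For PTGER3, 9 of 10 probe sets were highest in LOUCY.

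Enzymes and carriers were DCLRE1A, a nuclease of crosslink repair (2.91), DUSP23 (2.63), TST (2.33), the choline transporter SLC44A1 (2.16), SLC6A13 (2.10), SLC37A1 (2.09) and AOC1 (2.06). SLC44A1 had the highest signal of all 58 at 12.25 against 4.17 to 10.09, and all 6 probe sets were highest in LOUCY. ZCCHC7 (2.43) and the nucleolar protein LYAR (2.01) were already strongly expressed in all lines and still higher in LOUCY, at 11.69 against 7.90 to 9.26 and at 11.83 against 8.91 to 9.82. Just outside the threshold were PRR5L and VCL with gaps of 1.97 and ITGAD and PLEKHG3 with 1.96, and just inside were C1QTNF4, IGFBP7 and LYAR with 2.01 and IL18RAP with 2.0.

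The lower members were led by EZH2, the catalytic subunit of polycomb repressive complex 2, which methylates histone H3. EZH2 measured 2.53 in LOUCY and 9.73 to 11.19 in the other 10 lines, with a median of 10.12. The gap of 7.20 log2 units was the largest of all, and the gene was read by 1 probe set. The LOUCY value lay below its lower quartile of 3.49, so the size of the gap depends on a background signal. MYC, a driver of growth and a NOTCH target in T-ALL, measured 3.38 against 10.37 to 12.82, with a median of 11.59, also with 1 probe set. MYC was thus near background in LOUCY and among the strong genes of all other lines, while MYCN had the reverse order with LOUCY highest. TET2, an enzyme that oxidizes methylcytosine, measured 3.11 against 6.08 to 8.21, and 1 of its 2 further probe sets was lowest in LOUCY. CTBP2, a corepressor, measured 4.09 against 6.11 to 9.83, and 2 of its 5 further probe sets were lowest.

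**Figure D5:**
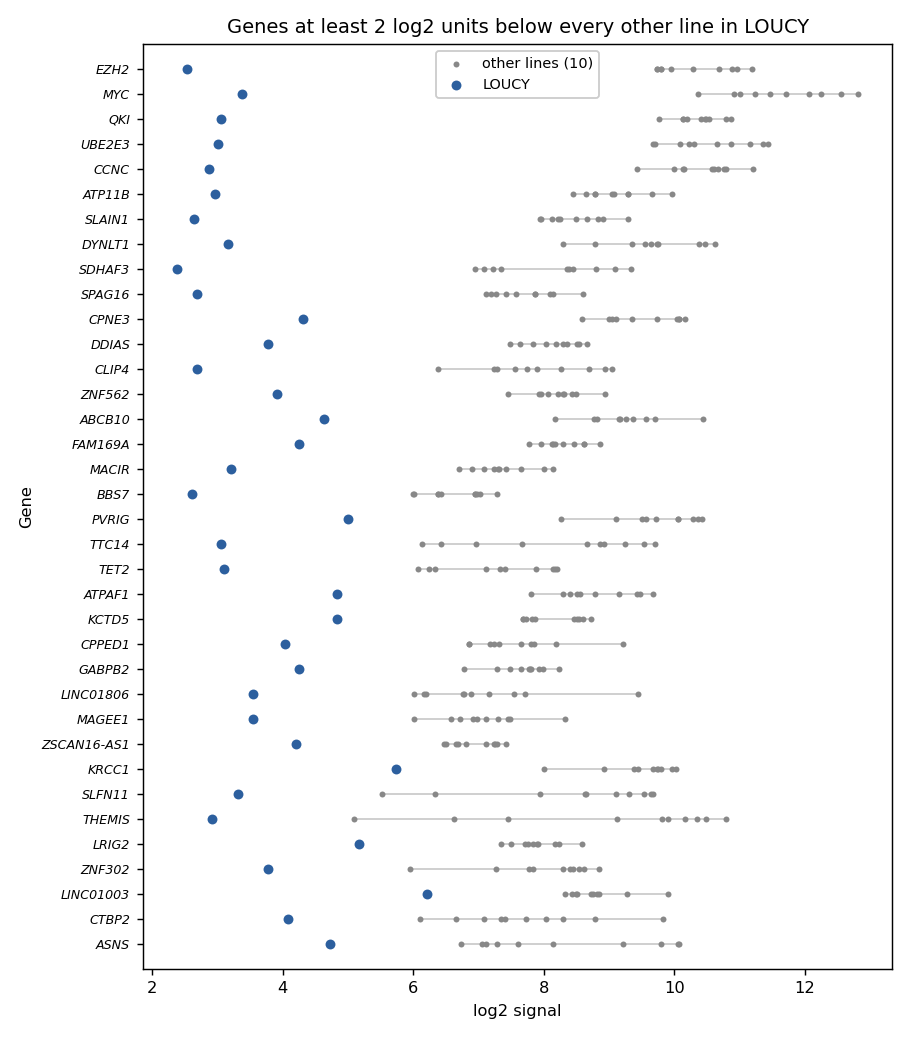
Each line of the plot is 1 of the 36 lower members, ordered by the gap to the nearest other line, with the log2 signal on the x axis. The blue point is LOUCY, grey points are the other 10 lines and the grey bar is their range, and LOUCY lies at 6.22 or less at every gene while gaps run from 7.20 for EZH2 to 2.01 for ASNS.

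QKI, a regulator of splicing, measured 3.06 against 9.77 to 10.87, and 8 of its 9 further probe sets were lowest in LOUCY. UBE2E3, a ubiquitin-conjugating enzyme, measured 3.01 against 9.68 to 11.44, and CCNC, the cyclin of the Mediator kinase module, measured 2.87 against 9.43 to 11.20. ATP11B, a phospholipid flippase, measured 2.96 against 8.45 to 9.96, with 4 of 5 further probe sets lowest. At these genes LOUCY was at background and the other lines lay close together.

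Microtubule and cilium genes were SLAIN1 (gap 5.30), the dynein light chain DYNLT1 (5.14), SPAG16 (4.43), CLIP4 (3.69) and BBS7 (3.39). Mitochondrial proteins were SDHAF3, an assembly factor of succinate dehydrogenase (4.57), the transporter ABCB10 (3.54) and ATPAF1, an assembly factor of ATP synthase (2.97). Among T-cell genes PVRIG, an inhibitory receptor, measured 5.01 against 8.27 to 10.42 beside THEMIS. Of genes tied to DNA damage, DDIAS measured 3.78 against 7.48 to 8.66. SLFN11, which blocks stressed replication forks, measured 3.32 against 5.52 to 9.67.

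Further lower members were CPNE3 (4.27), ZNF562 (3.55), FAM169A (3.52), MACIR (3.49), TTC14 (3.08), KCTD5 (2.85), CPPED1 (2.83), GABPB2 (2.53), LINC01806 (2.47), MAGEE1 (2.47), ZSCAN16-AS1 (2.27), KRCC1 (2.26), LRIG2 (2.18), ZNF302 (2.17), LINC01003 (2.11) and the asparagine synthetase ASNS (2.01), with the gap below the nearest other line in parentheses. None of the 3 further probe sets of LRIG2 and not the 1 of ZNF562 was lowest in LOUCY. Just inside the threshold were ZNF302, LINC01003, CTBP2 (2.02) and ASNS, and just outside were USP7 with a gap of 1.99, HSD17B12 with 1.96, PRCP with 1.92 and CHFR with 1.84.

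NKL homeobox genes and their regulators were examined because the study used LOUCY to ask how HHEX and MSX1 are controlled. The list median was 0.24 (other lines -0.51 to 0.40), with 5 of 24 above (20.8%) and 1 below every other line (4.17%). MSX1, an NKL gene of lymphoid progenitors, measured 8.04 against 3.21 to 7.69, JURKAT and HPB-ALL (6.95) came next, and its other probe set was not highest in LOUCY. DLX4 measured 6.69 against 3.40 to 4.96, and both probe sets were highest in LOUCY. HLX (4.73 with 3.21 to 4.83 elsewhere) and NKX2-3 (2.82 with 2.75 to 3.49) were not expressed above the other lines, and the latter was near background throughout. AUTS2, a partner of a polycomb complex, was highest at 10.67 against 3.08 to 9.68, as it was at 1 of its 2 further probe sets. The polycomb subunit PCGF5 was lowest at 7.92 against 7.99 to 10.38, a difference of 0.07 to CCRF-CEM. Among BMP pathway genes the receptor BMPR2 was highest at 7.98 against 5.69 to 7.37, the ligand BMP4 was at 4.43 with 4.29 to 8.28 elsewhere, and the inhibitor SMAD7 was at 5.48 with 2.92 to 6.84. BMPR1A was not analysed here. ID2 lay 3.24 above and ID1 3.76 below the median of the others, both inside the range.

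Stem and progenitor surface and marker genes had a median of -0.05 (other lines -0.50 to 0.33), with 6 of 22 above (27.3%) and 3 below every other line (13.6%). Over all genes these shares were 9.80% and 9.53%. Of the 6, IGFBP7 belongs to the own profile, so the rule chose it, and IGLL1 is also in the B-lineage list. ANGPT1, a ligand of the stem cell niche, was highest at 8.86 against 3.16 to 7.28, as were SMIM24 (11.89 against 5.03 to 11.06), SPINK2 (8.93 against 3.77 to 8.56) and CD109 (8.75 against 4.04 to 8.23). WT1 was lowest at 5.01 against 5.43 to 9.54. The list thus held opposite movements rather than a common one.

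Survival and growth genes differed less. In the BCL2 family the median was 0.49 (other lines -0.49 to 0.66), with 1 of 17 above (5.88%) and 0 below every other line. BCL2, which blocks apoptosis, measured 10.25 with a median of 6.92 elsewhere, but CML-T1 was higher at 10.85. Among cytokine receptor and JAK-STAT genes the median was -0.07 (-0.20 to 0.29), with 4 of 31 above (12.9%) and 5 below (16.1%). IL2RB (9.09 against 4.25 to 8.81), STAT5B (10.17 against 8.59 to 9.68) and TYK2 (9.50 against 7.71 to 9.09) were highest, and all 4 further probe sets of STAT5B were highest too. The kinase PIM1 was lowest at 5.77 against 6.21 to 10.40 and IFNGR1 was lowest at 7.39 against 7.88 to 9.23. IL7R, the receptor that supports early T-cells, was at 6.71 within 4.36 to 10.98.

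Cell cycle inhibitors had a median of 0.20 (-0.42 to 0.31), with 0 of 17 above and 3 below every other line (17.6%). CDKN1B was lowest at 7.87 against 9.36 to 11.13, RBL1 at 5.58 against 6.22 to 7.96 and RBL2 at 8.41 against 8.69 to 9.97. CDKN2A, often deleted in T-ALL, measured 9.60 with a median of 5.26 elsewhere and was exceeded by HPB-ALL at 10.60. Replication and mitosis genes had a median of -0.06 (-0.94 to 0.37), with 0 of 30 above and 2 below every other line (6.67%), of which CDT1 was 1.72 below the lowest other line at 7.01. Adhesion and migration genes had a median of 0.21 (-0.61 to 0.55), with 7 of 25 above (28.0%) and 1 below (4.0%). ITGB1 (11.87 against 9.98 to 11.56) and ICAM3 (11.26 against 3.17 to 10.61) were among the highest, while PECAM1 was 3.94 below the median. MHC class II genes had a median of 0.08 (-0.49 to 0.55), with 2 of 13 above (15.4%) and 1 below (7.69%), and HLA-DRA was low at 3.91.

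LOUCY is known to carry a fusion of SET and NUP214, which arises by deletion between both genes. NUP214, a nuclear pore protein, was highest in LOUCY at 9.59 against 7.19 to 8.13, and its other 2 probe sets were highest too, the weakest by 0.04. SET was inside the range at 11.50 (11.35 to 12.72). Of the 36 measured genes between them in RefSeq order, 27 were lower than the median of the others, 13 were below every other line (36.1%) and 1 above (2.78%). Their median was -0.44, and the other lines ranged from -0.43 to 0.43. FUBP3 (7.19 against 8.0 to 8.73), LRRC8A (7.82 against 8.66 to 9.56), FNBP1 (9.64 against 9.92 to 11.68) and USP20 (6.71 against 6.73 to 9.87) were among those at the bottom. The differences of these 13 genes from the median of the others ran from -1.69 to -0.44.

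Other runs of neighbours were read in windows of 40 genes in RefSeq order, for which 19735 genes had a place. The lowest window median in LOUCY was -0.72, inside the range of -0.97 to -0.45 that the lowest windows of the other lines had. It was reached by the run from IPCEF1 to CAHM, where 13 genes were below every other line and DYNLT1 is a member, and by the run from PDLIM4 to PCBD2, where 19 were. The run from NUBP1 to CEP20, with CPPED1, had -0.70 and 17 such genes. The highest window, 0.53, began at HOXB2 and ended at PPP1R9B, and it held 6 higher members. The highest windows of the other lines reached 0.47 to 0.76. With windows of 20 genes the highest median was 2.5 in LOUCY, from CDK5RAP3 to LINC02086, above the 0.61 to 1.33 of the other lines.

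Over the 30% most variable probe sets, LOUCY was nearest to PEER (Euclidean distance 190) and CCRF-CEM (191) and farthest from CML-T1 (245) and HPB-ALL (235). Its mean distance to the other lines was 215, within their range of 191 to 224. The nearest other line at the higher members was MOLT-16 for 10 genes, HPB-ALL, PEER and JURKAT for 7 each, and at the lower members SUP-T1 and the MOLT lines 4, 14 and 16 for 6 each.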

How the data were processed

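Total RNA of 11 established T-ALL lines was hybridized to HG U133 Plus 2.0 arrays, 1 array per line. The deposited log2 values were made by the authors with RMA, and the submitters' processing notes also name affy and limma. Versions and a genome build are not given in the sources used here. Values carry 2 decimals and were not scaled again. Precision is limited by the number of arrays.

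Left out were 62 control probe sets. In GEO's platform annotation 41091 of the other 54613 probe sets had 1 symbol, 1801 several and 11721 none, and only those with 1 symbol were named. The probe set with the highest mean represented a gene. Each line was compared with the median, lowest and highest value of the other 10, using Python 3.11.15, numpy 2.4.6 and pandas 2.3.3. The counting was tested on simulated data with planted genes. RefSeq (GRCh38.p14) supplied gene order, promoters and the miRNA.

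The 21 lists held 442 measured genes of 488, and 46 were not analysed here. Named genes were the label's markers, the 20 higher and 15 lower own-profile genes with the largest gaps, list members in the own profile, the 3 largest differences of each list in each direction, 13 genes the study examined, and 4 genes on each side of the threshold. The other own-profile genes are named to account for every member, and further genes were chosen after their values were seen. Members and lists were chosen with earlier results of these data known. Alternatives changed the gap, the probe set of a gene, the scaling, the floor, the lines compared and the summary. The windows limited to expressed genes were chosen after seeing the data.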

Additional observations from a re-analysis of the deposited data

Results flagged for a closer look

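Within the 6 NKL-positive lines, LOUCY lay far above the rest for the B-lineage list, with a median of 0.42 against -0.14 to 0.01, and for the NK and cytotoxic list, with 1.26 against -0.21 to 0.20. It was also far above them for MEF2C, at 10.57 against 2.95 to 5.74. Within the 5 NKL-negative lines, MOLT-16 lay far above the rest for the same NK and cytotoxic list (1.53 against -0.20 to 0.29) and for MEF2C (7.69 against 3.28 to 3.83). These values were picked out because the gap to the next line exceeded Dixon's 95% limit within the group, which chance alone exceeds in about 1 of 20 groups, and 72 groups of values were screened. The screen supports no result. MEF2C in LOUCY was already chosen for its lead over every other line, and the B-lineage list holds VPREB1 and IGHM, which were chosen in the same way.

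Probe sets that carry several symbols or none were not used above. LOUCY was at least 2 log2 units above every other line at 23 of these 13522 probe sets (0.170%) and at least 2 below at 7 (0.0518%).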

How the results depend on the processing

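No paired analysis was possible because the arrays carry no replicate numbers and every line was profiled once. With a gap of 1 log2 unit the own profile held 193 higher and 136 lower genes, and with a gap of 3 it held 22 and 20. The mean over all probe sets of a gene left 22 lower genes. Against the 7 other lines with poly-A controls 112 genes were higher, and 2923 genes lay below every line compared. Against the 5 other NKL-positive lines the own profile held 121 higher and 72 lower genes, with 3604 above and 3352 below every line compared. Leaving out 1 other line gave 60 to 82 higher and 38 to 49 lower genes, and fewer lines compared can only enlarge these counts. At least 2 log2 units beyond every other line were 27 further probe sets of the higher and 9 of the lower members.

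The ETP factor median became 1.39 with the probe set of highest variance, 1.44 against NKL-positive lines and 1.40 against the mean of the others. Against NKL-positive lines the NK list fell to 0.69, the BCL2 family to 0.10 and the cell cycle list to -0.02, which was -0.04 with the mean of all probe sets. With the mean of the others the NKL list had 0.52 and the CD3 list 0.13. Leaving out 1 line gave 0.77 to 1.31 for the NK list, 0.28 to 0.70 for the B-lineage list, the highest without SUP-T1, and -0.28 to 0.02 for the JAK-STAT list, the lowest without HPB-ALL or JURKAT. The lowest window was -1.12 with 20 genes and -1.17 with expressed genes only. Of 378 list values under alternatives 366 moved by less than the spread of the other lines, as did 3728 of 3816 values of 212 named genes, and no gene difference past 2 units changed sign. Near background the array cannot show differences smaller than its noise.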
